A study of Mus musculus with 15 samples.

Results

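Chromosome 19 (Chr19) was covered by 1331 of the 42404 distinct non-control probes of the array, 3.27% of the 40726 autosomal probes. They were chosen by position alone, as every non-control probe that the array files place on Chr19, and ran from position 3259856 to position 61309640 with a median of 18.3 kb from probe to probe. They were measured in 5 hepatocellular carcinomas (HCC) and in 3 unaffected livers from 3 mice, with 15 arrays in all. All 3 mice carried Mad2flox and p53flox alleles and AlbuminCre on a mixed C57BL/6 background and had the genotype Mad2(f/f), so both copies of Mad2l1 were floxed in every tissue measured, livers included. Mouse 3151, a female of 16.4 months with the genotype p53(f/+), gave HCC 1, HCC 2 and unaffected liver 1. Mouse 3760, a male of 13.8 months with p53(f/f), gave HCC 3 and unaffected liver 2. Mouse 4033, a male of 13.9 months with p53(f/f), gave HCC 4, HCC 5 and unaffected liver 3. The reference on every array was DNA of normal liver on the same mixed background, from the other sex, male for mouse 3151 and female for mice 3760 and 4033. Sex, age, Trp53 genotype and reference DNA therefore cannot be told apart from the difference between mouse 3151 and the other mice. Albumin drives Cre in hepatocytes, so the floxed alleles of the other cells of a liver or tumour are not its target, and each ratio averages over all cells of the piece of tissue. A change in few cells and a smaller change in many cells cannot be told apart in such a ratio.

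Mad2l1 encodes a protein of the spindle assembly checkpoint, which holds mitosis until every chromosome is attached to the spindle. Cells without it can gain or lose whole chromosomes, and Trp53 encodes p53, which restrains the growth of such cells. Chr19 is the smallest mouse autosome and carries genes of mitosis (Kif11, Incenp), of growth control (Chuk, Sufu, Men1), of liver metabolism (the Cyp2c and Scd families) and a large cluster of olfactory receptor genes. In array comparative genomic hybridisation, tissue DNA and reference DNA carry different dyes and compete for each probe. The log2 ratio of tissue over reference is 0 where both hold the same number of copies. It would be -1 for 1 copy against 2 and 0.58 for 3 copies against 2 if every cell carried the change, and a ratio alone does not say which of the samples differs.

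The probes on which the results turn are printed here as the files hold them, in lower case throughout, with the position the files give. The strand is not given in the sources used here, nor is the genome build of the positions. The first 3 lie in a stretch of neighbouring probes that differed between mice in every tissue, and they are Gcnt1 at chr19:17425070-17425129, Rfk at chr19:17470809-17470868 and D17583 at chr19:17639188-17639234, a probe of 47 bases. D17583 itself was not called between mice, with an adjusted p of 0.340 in limma's F-test. Relative to the median of Chr19 it stood at 0.43 in unaffected liver 1 of mouse 3151.
Gcnt1: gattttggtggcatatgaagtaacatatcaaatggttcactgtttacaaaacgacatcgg
Rfk: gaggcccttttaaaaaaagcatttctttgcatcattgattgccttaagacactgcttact
D17583: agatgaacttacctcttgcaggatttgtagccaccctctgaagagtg
The next 5 differed between mice alone or with 1 other probe nearby, and they are shown to let a reader compare single-probe signals with that stretch. The probe that the files name only by its position lies at chr19:23551215-23551274, that of Scd4 at chr19:44419920-44419979, that of Wnt8b at chr19:44570451-44570510, that of Tectb at chr19:55259839-55259898 and that of Trub1 at chr19:57529068-57529127.
Unnamed probe: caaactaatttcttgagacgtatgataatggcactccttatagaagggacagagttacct
Scd4: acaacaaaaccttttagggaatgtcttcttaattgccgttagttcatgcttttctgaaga
Wnt8b: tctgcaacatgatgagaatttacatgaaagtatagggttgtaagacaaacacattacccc
Tectb: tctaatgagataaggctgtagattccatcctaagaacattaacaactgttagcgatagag
Trub1: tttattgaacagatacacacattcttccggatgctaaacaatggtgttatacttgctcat
The last is the other probe of Wnt8b, at chr19:44586728-44586787, which lay between -0.33 and 0.07 in the 8 tissues relative to the median of Chr19.
Wnt8b, other probe: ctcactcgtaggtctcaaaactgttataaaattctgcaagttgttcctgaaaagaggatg

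Median GC content was 36.7% on Chr19 and 36.7% on the other autosomes, and no Chr19 probe lacked a value in any tissue. Median signal over background of Chr19 spots was 4.11 to 6.79 in green and 3.91 to 8.02 in red over the 15 arrays. The dye-swap and forward arrays of a tissue gave Chr19 levels within 0.0013 to 0.072 of each other on the log2 scale in the 7 tissues that had both. Single probes were far less certain, since values of the 2 orientations correlated over the 1331 probes with Pearson r of only -0.26 to 0.23 and differed with an SD of 0.24 to 0.50. The noise of a single probe value, estimated from the steps between neighbouring probes of 1 tissue, was 0.084 to 0.203. HCC 3 had a forward array only.

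The question of the whole chromosome came first, since loss of Mad2l1 was studied for its effect on chromosome number. The level of Chr19, the mean log2 ratio of its probes, was 0.09, -0.22, -0.02, -0.04 and -0.32 in HCC 1 to HCC 5, in that order. It was -0.13, -0.03 and -0.0002 in unaffected livers 1, 2 and 3. HCC 5 had the lowest level and was the only tissue past the cut-off of 0.3. The groups overlapped, with HCC 1 above every liver and HCC 2 and HCC 5 below every liver. Setting the zero of each array at the mode of its autosomal probes in place of their median moved HCC 1 to HCC 5 to -0.02, -0.13, 0.01, -0.09 and -0.57 and the livers to -0.14, -0.05 and 0.01. HCC 1 then lay below unaffected liver 3 and HCC 2 above unaffected liver 1, and HCC 5 alone stayed below every liver. For scale, the X chromosome, which by sex differs by 1 copy between an unaffected liver and its reference, had a mean absolute level of 0.889 in the unaffected livers. In HCC 1 to HCC 5 the X level was 0.30, 0.35, -1.09, -1.30 and -0.68. The cause of that spread was not tested, and the scale of the livers may not hold in the tumours.

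**Figure D1:**
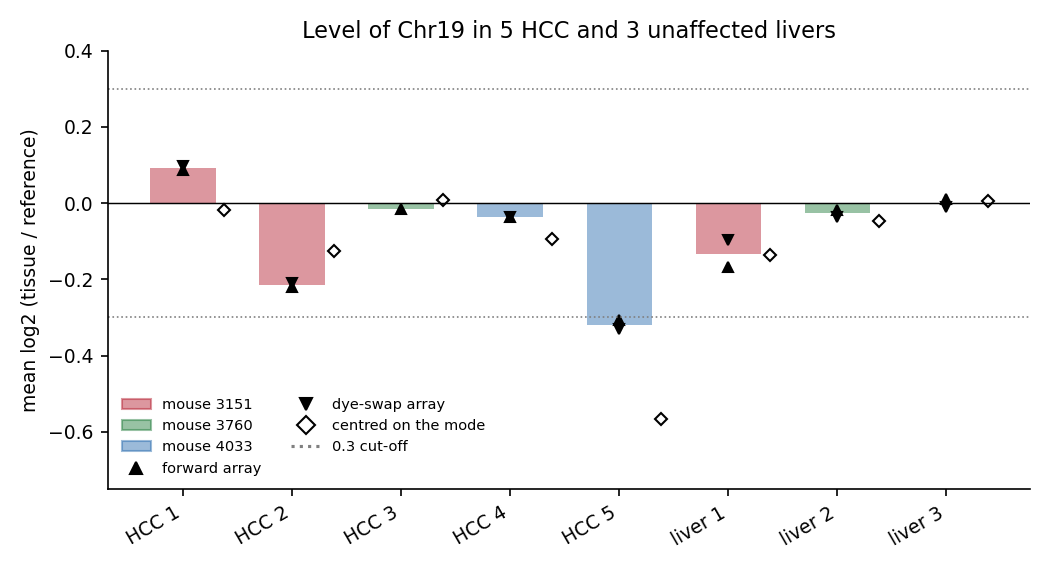
Level of Chr19 by tissue. The y axis is the mean log2 ratio of tissue over reference of 1331 probes, bars are the mean of the dye orientations coloured by mouse, triangles are single arrays, open diamonds are the level with each array centred on its mode, and dotted lines mark 0.3 in either direction. HCC 5, at -0.32, is the only bar past a dotted line, and its diamond lies lower, at -0.57.

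The 5 HCC averaged -0.10 ± 0.17 (SD, n = 5), and the 3 unaffected livers averaged -0.05 ± 0.07 (SD, n = 3). The difference of -0.05 (SE 0.12) was smaller than the spread between tissues and did not pass limma's test over 19 autosomes, with an adjusted p of 0.704. An exact permutation test over 56 splits, two-sided, gave p = 0.732, with 0.0179 the smallest p it allows. Without HCC 5 the difference was 0.01. Within scan day 1 (HCC 3 and HCC 5 against unaffected livers 2 and 3) it was -0.15, and within scan day 2 (HCC 1, HCC 2 and HCC 4 against unaffected liver 1) it was 0.08, neither past the test.

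Tumours of one liver were compared next. In mouse 3151, HCC 1 lay 0.31 above HCC 2, and in mouse 4033, HCC 4 lay 0.28 above HCC 5. With each array centred on its mode the gaps were 0.11 and 0.47. There is no replicate tumour to test them with. Against the unaffected liver of the same mouse, HCC 1 to HCC 5 lay at 0.23, -0.08, 0.01, -0.04 and -0.32. With mode centring they lay at 0.12, 0.01, 0.06, -0.10 and -0.57. HCC 5 stood lowest and HCC 1 highest with either centring, HCC 2 changed sign, and the shift of HCC 1 shrank while that of HCC 5 grew. Chr19 was the 6th lowest of the 19 autosomes in HCC 5 and the 14th lowest in HCC 1, so other autosomes lay further from the liver in both tumours.

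The shifts of HCC 1 and HCC 5 kept their sign along Chr19. With the probes cut into 10 consecutive groups, HCC 5 minus its own liver stayed between -0.34 and -0.29, HCC 1 minus its own liver between 0.15 and 0.29, and HCC 4 minus its own liver between -0.05 and -0.02. HCC 2 minus its own liver ran from -0.14 to -0.04, and HCC 3 minus its own liver, which was near 0 as a whole, ran from -0.07 to 0.05. The mean of the first 665 probes minus that of the rest ran -0.02, 0.003, 0.01, 0.02 and 0.01 from HCC 1 to HCC 5, and 0.01, 0.02 and 0.01 from unaffected liver 1 to 3. The groups differed in it by -0.008, and the exact permutation test, two-sided, gave p = 0.571. Segmentation of each tumour minus its own liver left Chr19 as 1 segment in all 5 HCC, with no focal region (a segment with fewer than 0.5 of the probes whose mean lies 0.3 or more from the chromosome median). At a lower penalty, HCC 1 gained 1 focal region, given with the processing alternatives.

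**Figure D2:**
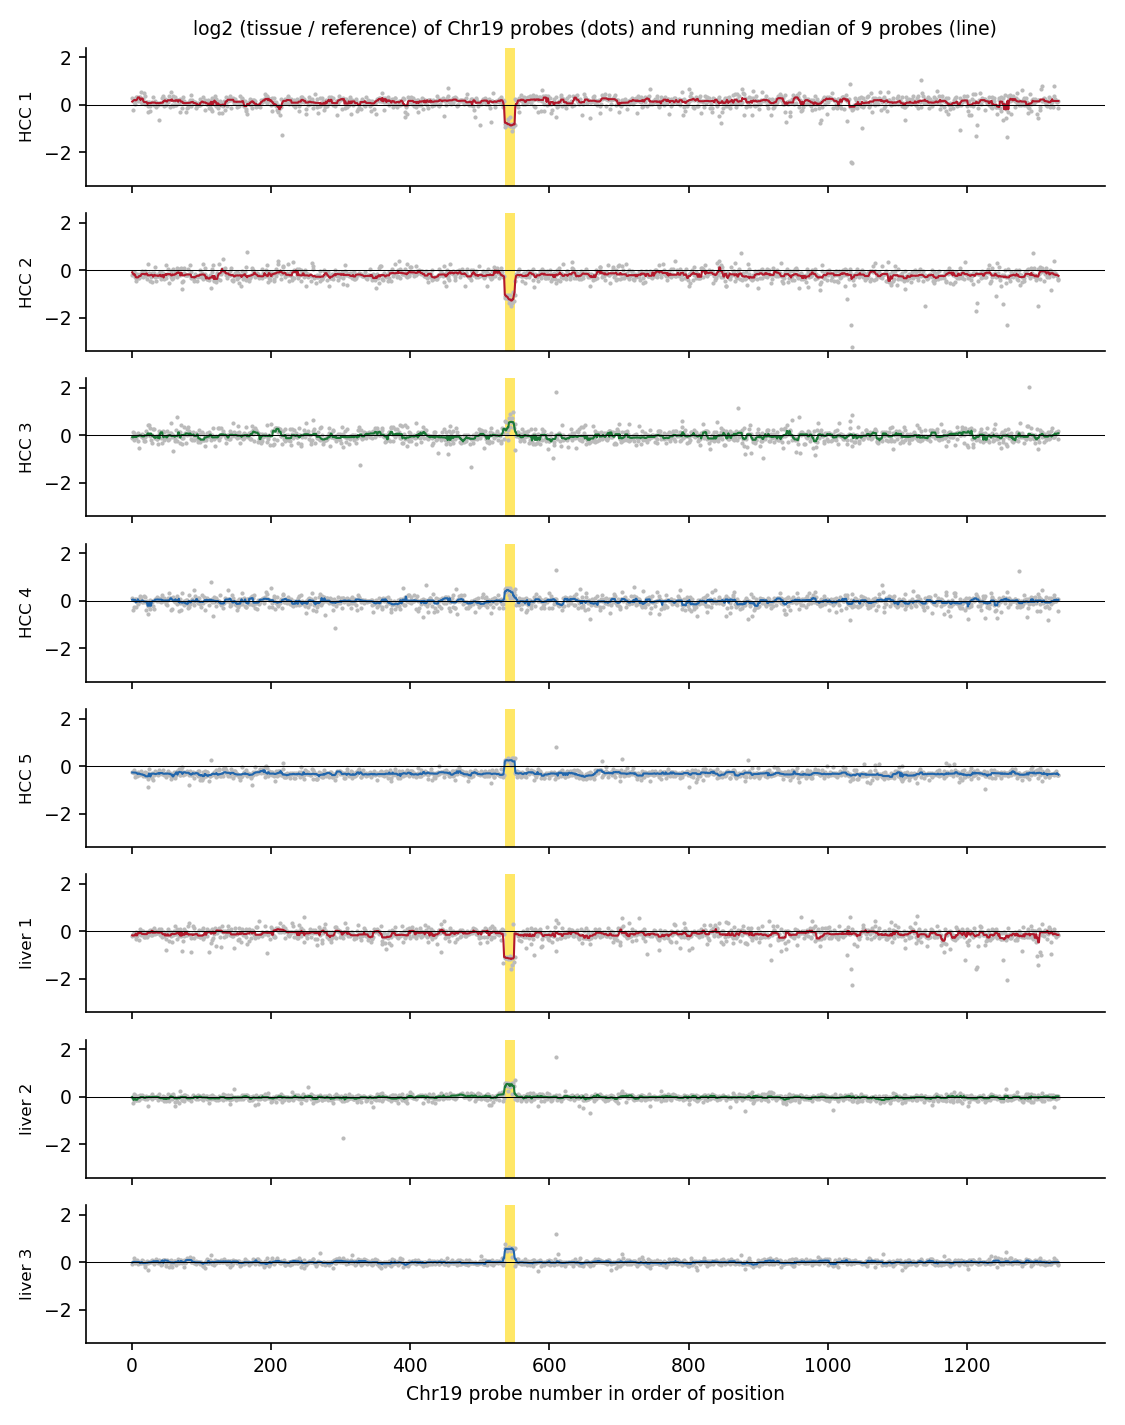
Chr19 probes in the 8 tissues. The x axis is the probe number in order of position, the y axis the log2 ratio of tissue over reference, grey dots are probes, lines are running medians of 9 probes coloured by mouse (red 3151, green 3760, blue 4033), and the yellow band marks the 15 probes around Gcnt1 and Rfk. The line is level along the chromosome in every tissue apart from the band, where it falls below the rest in mouse 3151 and rises above it in mice 3760 and 4033.

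Against the reference, 1 stretch of Chr19 stood apart in all 8 tissues. It held 15 probes in 732 kb, chr19:17158976-17890598, and its probes were named AK165582, Gcnt1, AK041805, Rfk, D17583 and D12619, with 3 named by position alone. Gcnt1 encodes a glycosyltransferase that builds branched O-linked sugar chains on proteins, and Rfk encodes riboflavin kinase, which makes the cofactor FMN from vitamin B2. In the RefSeq gene order of GRCm38.p6 the protein-coding genes run Vps13a, Foxb2, Prune2, Gcnt1, Rfk, Pcsk5, Ostf1. Its coordinates were not used, so the order does not show which genes beside Gcnt1 and Rfk the stretch reaches. The following values are chromosome-normalised, the log2 ratio minus the median of Chr19 in that tissue.

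In mouse 3151 the 15 probes averaged -0.96 ± 0.14 in HCC 1 (SD over probes), -0.996 ± 0.16 in HCC 2 and -0.98 ± 0.42 in unaffected liver 1. In mouse 3760 they averaged 0.50 ± 0.32 in HCC 3 and 0.51 ± 0.14 in unaffected liver 2. In mouse 4033 they averaged 0.39 ± 0.15 in HCC 4, 0.57 ± 0.09 in HCC 5 and 0.55 ± 0.12 in unaffected liver 3. All 3 tissues of mouse 3151 were thus low, all 5 tissues of the other mice were high, and the sets did not overlap. The 30 flanking probes, 15 on either side, averaged between -0.04 and 0.03 in the 8 tissues. The stretch was chosen for these means, so they carry no test. The arrays of both orientations gave the same picture, with -1.02 to -0.94 over the 6 arrays of mouse 3151 and 0.36 to 0.63 over the 9 arrays of the other mice.

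Within a tissue, nearly all probes of the stretch had the same sign. In HCC 1 and HCC 2 each of the 15 lay below 0, as did 14 in unaffected liver 1, where D17583 was the exception at 0.43. Each of the 15 lay above 0 in HCC 4, HCC 5 and unaffected livers 2 and 3, as did 14 in HCC 3, which had a forward array only. The Rfk probe gave -0.96, -1.03 and -1.04 in HCC 1, HCC 2 and unaffected liver 1, against 0.58, 0.43, 0.53, 0.60 and 0.59 in HCC 3, HCC 4, HCC 5 and unaffected livers 2 and 3. The Gcnt1 probe printed above gave -1.004, -1.17 and -1.01 in the tissues of mouse 3151 and 0.75, 0.28, 0.57, 0.55 and 0.63 in the others. The other Gcnt1 probe, at 17403063, gave -0.73, -1.04 and -1.06 in the tissues of mouse 3151. In HCC 3, HCC 4, HCC 5 and unaffected livers 2 and 3 it gave -0.18, 0.48, 0.61, 0.27 and 0.56. The 15 probes of HCC 3 ran from -0.18 to 1.03. The last probe before the stretch, 122 kb away and named AK165582 as well, lay between -0.13 and 0.05 in the 8 tissues. The first probe after it, 96.7 kb away, lay between -0.24 and 0.24 in 7 tissues and at -0.61 in HCC 3. In the tissues segmented at the full 15 probes the shift thus ended within the gap to the next probe on either side. Segmentation set other ends in HCC 3 (9 probes), HCC 4 (16 probes) and unaffected liver 1 (17 probes). The probe at 16944661, the second before the stretch, was low at -1.24 in unaffected liver 1 and lay between -0.17 and 0.14 in the other tissues.

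**Figure D3:**
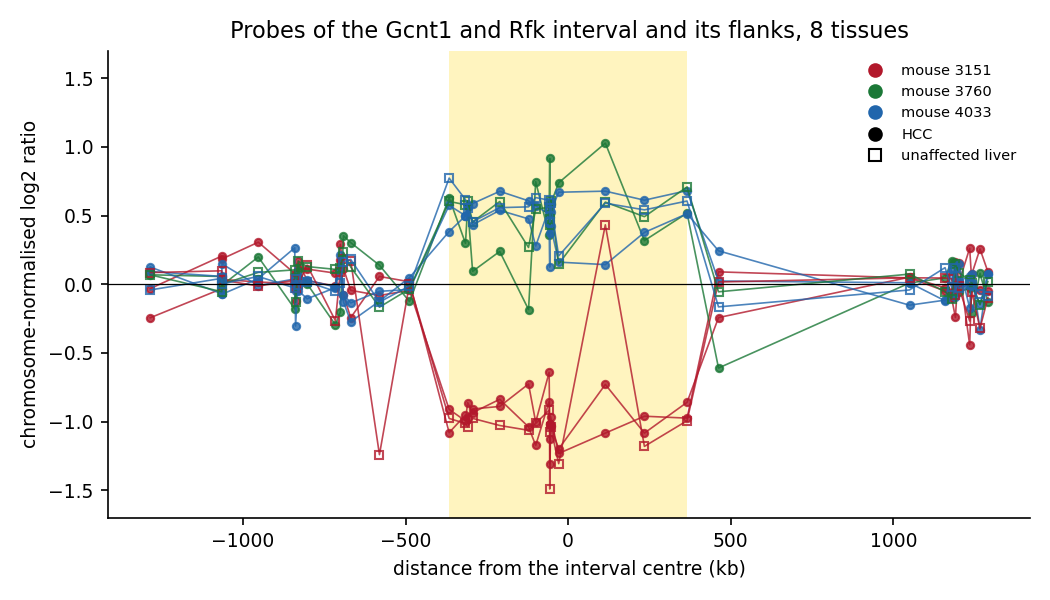
Probes of the stretch around Gcnt1 and Rfk and its flanks. The x axis is the distance from the centre of the stretch in kb, the y axis the chromosome-normalised log2 ratio, filled circles are HCC, open squares unaffected livers, colours mark the mice, and the shaded band spans the 15 probes. Tissues of mouse 3151 lie near -1 and tissues of mice 3760 and 4033 mostly near 0.5 inside the band, and all lines return to near 0 outside it apart from single probes.

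The stretch was also compared with the liver of the same mouse. HCC minus own liver over the 15 probes ran 0.25, -0.12, -0.02, -0.17 and -0.30 from HCC 1 to HCC 5. The rest of Chr19 gave 0.22, -0.08, 0.01, -0.03 and -0.32 in the same order. The stretch thus differed from the rest of Chr19 by 0.03, -0.03, -0.03, -0.14 and 0.02, with the widest gap in HCC 4, and these gaps were not tested. Since HCC 5 had a low Chr19 and a raised stretch, its ratio there was 0.25 against the reference while the chromosome median was -0.32. All tissues of mouse 3151 and HCC 4, of mouse 4033, were scanned on one day, on which the 3 tissues of mouse 3151 lay between -0.996 and -0.961 and HCC 4 at 0.39. The other 4 tissues were scanned on the other day.

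Over all autosomes, differences between the 3 mice were tested probe by probe with limma's moderated F-test on chromosome-normalised ratios, which asks whether animals differ by more than tissues of one animal do. It called 26 of the 1331 Chr19 probes, 1.95%, against 1.5% of all 40726 autosomal probes, and the share ran from 0.640% to 2.64% over the autosomes, 4 of which had a higher share than Chr19. The share on Chr19 was thus near the background. All 26 were lower in mouse 3151 than in the others, beside 269 of the 609 called probes of all autosomes, and probes called and lower in mouse 3151 were 0.661% of all autosomal probes. In none of the 26 did the 3 tissues of mouse 3151 overlap with the other 5, which held for 476 of the 609. The single direction did not hold each time a tissue was left out, since 7 of 36 called probes were higher in mouse 3151 without unaffected liver 2, 1 of 29 without HCC 1 and 1 of 26 without HCC 3. Of the 26 probes, 14 lay among the 15 probes of the stretch around Gcnt1 and Rfk, all of which but D17583 were called. Outside it 12 of 1316 probes were called, 0.912%.

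The smallest adjusted p-values (limma, Benjamini-Hochberg) belonged to Rfk at 8.45e-06, to AK165582 at 17215817 and to the unnamed probe at 23551215, both at 9.28e-06, to D12619 at 17890539, 1.56e-05, and to AK165582 at 17209191, 2.28e-05. Their values in mouse 3151 ranged around -1 apart from the unnamed probe. That probe gave -0.65, -0.34 and -0.71 in HCC 1, HCC 2 and unaffected liver 1, and 1.84, 1.32, 1.13, 1.68 and 1.19 in HCC 3, HCC 4, HCC 5 and unaffected livers 2 and 3. It was the only called probe outside the stretch with one sign in every tissue of mouse 3151 and the opposite sign in every other tissue, and its neighbours averaged 0.06 in mouse 3151.

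The other 11 called probes were lowest in mouse 3151. They lay in or near Hps1, Pkd2l1, Scd4, Wnt8b, Sufu, Tectb, Gucy2g, Ablim1 and Trub1, with 2 named by position. The values of all 12 probes outside the stretch had a median of -1.07 in mouse 3151 and 0.01 in the other mice, and in 10 of the 12 the other mice averaged within 0.2 of 0. The 4 nearest probes, 2 on either side, had a median of only -0.13 in mouse 3151, and for 8 of the 12 their mean lay within 0.3 of 0. In each of the 12, every array of mouse 3151 that measured the probe was below 0, in both dye orientations. The depth could differ widely between arrays, as at Wnt8b and Scd4 below.

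Wnt8b, which encodes a secreted Wnt ligand, was the deepest. Its called probe gave -2.59, -3.04 and -2.14 in HCC 1, HCC 2 and unaffected liver 1 and -0.42, 0.29, -0.12, -0.15 and 0.01 in the other 5 tissues, with an adjusted p of 8.47e-05 (limma). The orientations differed in depth there, with ratios of -3.51 (forward) and -1.39 (dye swap) in HCC 1. They were -4.46 and -2.01 in HCC 2 and -3.01 and -1.46 in unaffected liver 1. The other Wnt8b probe gave -0.33, -0.23 and 0.02 in mouse 3151. The probe of Scd4, a stearoyl-CoA desaturase gene, gave -2.56, -2.11 and -1.50 in mouse 3151 and between -0.15 and 0.12 elsewhere, with an adjusted p of 0.000677 (limma), while the other Scd4 probe gave 0.73, 0.25 and 0.69 in mouse 3151. Over the single arrays of mouse 3151 the low Scd4 probe ran from -3.94 to -0.73. Trub1, a pseudouridine synthase gene, gave -1.48, -2.09 and -1.96 at one probe and 0.24, -0.04 and 0.23 at the other. Tectb, which encodes a protein of the inner ear's tectorial membrane, gave -1.43, -1.52 and -1.47 at one probe and -0.07, 0.06 and -0.05 at the other. In each of these 4 genes 1 probe was low and the other lay above -0.35 in the tissues of mouse 3151. Of the other genes with a called probe, Pkd2l1 gave 0.28, 0.19 and 0.17 and Sufu -0.23, 0.15 and -0.24 at their other probe in mouse 3151. The other probes of Gucy2g, at -0.29, -0.28 and -0.50, and of Hps1, at -0.26, -0.05 and -0.20, were below 0 in all 3 tissues.

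Such probes set most of the smaller focal regions. Segmentation against the reference found 16 focal regions over the 8 tissues. Of these 8 were the stretch around Gcnt1 and Rfk, once per tissue, with 9 probes in HCC 3, 16 in HCC 4, 17 in unaffected liver 1 and the full 15 elsewhere. Scd4 to Sec31b, chr19:44419920-44597048, was called in the 3 tissues of mouse 3151 with means over its 5 probes of -1.21, -1.07 and -0.66, and 2 of the 5 probes, those of Scd4 and Wnt8b above, held the low values. Tectb to Acsl5, chr19:55259839-55355878, was called in unaffected liver 1 and averaged -0.70 there, and -0.53 and -0.58 in HCC 1 and HCC 2. Ablim1 to Trub1, chr19:57285230-57529127, was called in HCC 2 at -0.59, and averaged -0.51 in HCC 1 and -0.56 in unaffected liver 1. These 3 regions lay between -0.10 and 0.13 in every tissue of the other mice.

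The remaining focal regions were in unaffected livers 2 and 3. Smc5 to the unnamed probe in unaffected liver 2 and Mamdc2 to 1700028P14Rik, chr19:23448518-23724025, in unaffected liver 3 both rested on the unnamed probe described above. Fads3 to Fads2, chr19:10119488-10247162, in unaffected liver 2 averaged -0.39 and rested on 1 spot. The Fads2 probe, of a fatty acid desaturase gene, had ratios of 0.002 (forward) and -3.46 (dye swap) in that liver. With each probe replaced by the median of itself and its neighbours, an alternative chosen after seeing the data, 11 focal regions were left, of which 8 were the stretch around Gcnt1 and Rfk and 3 lay at Scd4 to Sec31b in HCC 1 and HCC 2 and at Tectb to Acsl5 in unaffected liver 1.

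**Figure D4:**
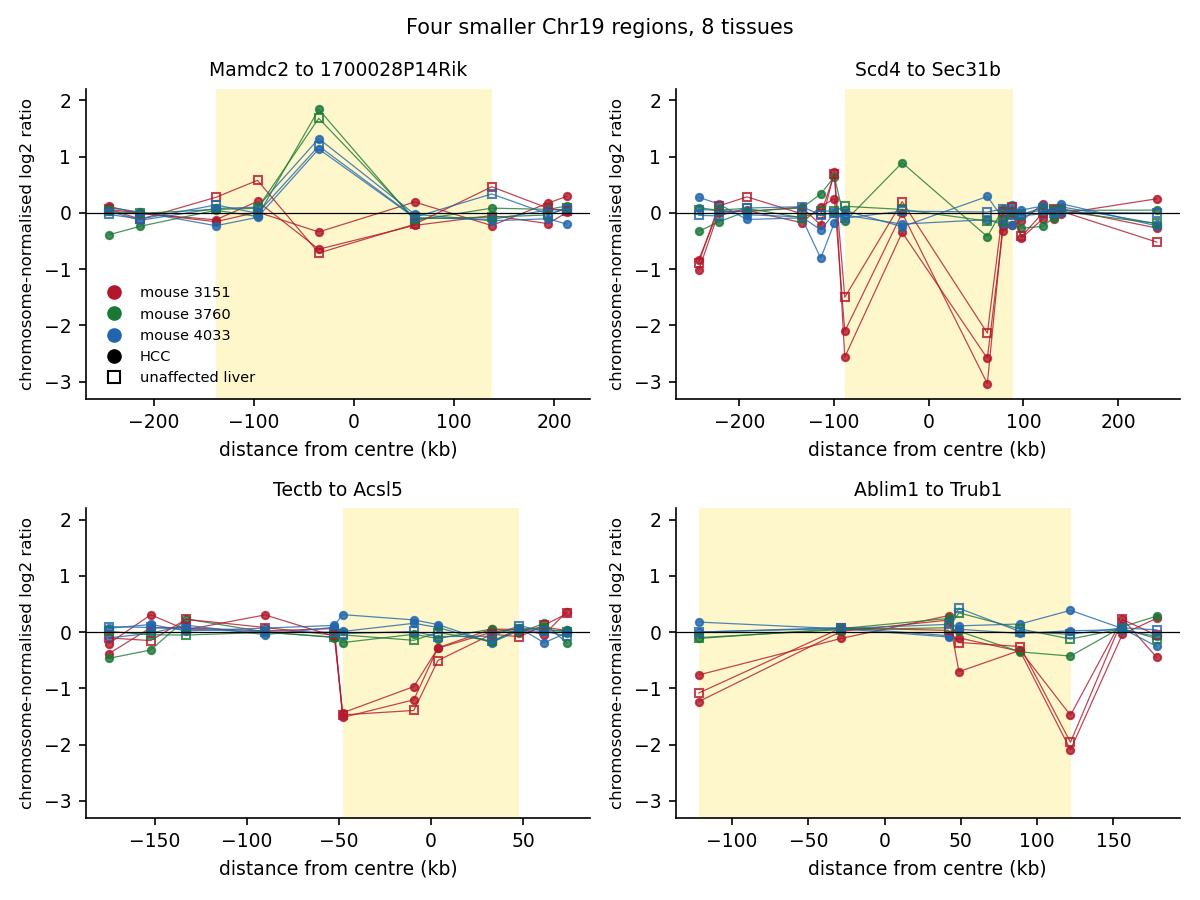
The 4 smaller regions called in tissues of mouse 3151 or in unaffected livers 2 and 3, without the Fads3 to Fads2 region. The x axis is the distance from the centre of the region in kb, the y axis the chromosome-normalised log2 ratio, filled circles are HCC, open squares unaffected livers, colours mark the mice, and shading spans the region. In each panel 1 or 2 probes are far from 0 in mouse 3151 (or in the other mice, at the unnamed probe near Mamdc2), and most other probes lie nearer to 0. In the Tectb to Acsl5 panel the low probes of Tectb and Gucy2g are neighbours. The next probe there, also of Gucy2g, lies at -0.29, -0.28 and -0.50 in HCC 1, HCC 2 and unaffected liver 1.

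No Chr19 probe passed the test between HCC and unaffected livers. With the whole chromosome included, limma called 0 of 1331 Chr19 probes and 0 of 40726 autosomal probes (0%) at an adjusted p of 0.05, and 2 Chr19 probes had an unadjusted p under 0.05, 0.150%, against 7.4% of all autosomal probes. Chromosome-normalised, it again called 0 of 1331 on Chr19 and 0% of all, and 12 Chr19 probes had an unadjusted p under 0.05, 0.902%, against 1.53% of all. Both of these shares were below the 0.05 set by that cut-off. With the chromosome included, no probe of Chr15 was called either, although the level of Chr15 differed between the groups. That difference was 0.46, with an adjusted p of 0.00775 (limma). The lack of calls therefore does not show that Chr19 probes were unchanged. The groups did not overlap at 25 of the 1331 Chr19 probes, 1.88%, chromosome-normalised, against 2.07% of all autosomal probes. The smallest p belonged to AK163904 at 6534444, which failed with adjusted p of 0.639 with the chromosome included and 1.00 chromosome-normalised (limma). Its ratios were 0.37, 0.21, 0.44, 0.28 and -0.39 in HCC 1 to HCC 5 and -0.90, -0.04 and -0.08 in the livers, so the groups overlapped through HCC 5. Next by unadjusted p with the chromosome included came 1700028P14Rik, Hectd2, Rbm4b and A630007B06Rik, with HCC minus liver of -0.37, -0.28, -0.30 and -0.43. Chromosome-normalised they were Rcl1 at 0.26, the probe at 10037309 at -0.23, Kif20b at 0.36 and 1700028P14Rik at -0.33, and all of these failed the adjusted test.

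Genes of mitosis and chromosome maintenance on Chr19 gave no call. The limit of the probe test between HCC and liver given above holds for this and every other gene list. Of 16 listed genes 12 had probes, 21 in all, and 0 of these were called in any of the 3 probe comparisons. Chromosome-normalised, 1 of the 21, a probe of Kif20b, had an unadjusted p under 0.05 in limma. The median difference of the 12 genes between HCC and liver was 0.001 on the chromosome-normalised scale, with 6 genes higher and 6 lower. That of all 1331 probes was -0.001. Single tumours lay far from 0 at some of them, as Hells, a chromatin remodeller gene with 1 probe, at 0.93 in HCC 2, and Smc5, part of a DNA repair complex, at -0.67 in HCC 3. The lowest difference between the groups was that of Incenp, part of the complex that corrects spindle attachment, which gave -0.15, 0.13, -0.03, -0.51 and -0.15 in HCC 1 to HCC 5 and 0.12, -0.00 and 0.02 in the livers. The value of HCC 4 came from 1 Incenp probe, the lowest Chr19 probe of that tissue at a ratio of -1.14. The highest difference was that of Ppp1ca, a protein phosphatase subunit, with 0.07, -0.13, -0.10, -0.04 and 0.00 in HCC and -0.23, -0.14 and -0.14 in the livers. Its single probe did not overlap between the groups and had an unadjusted p of 0.11 in limma. Of the 137 listed genes with probes, 2 did not overlap, 1.46%, namely Ppp1ca and Olfr1459, against 14 of all 872 probe names on Chr19, 1.61%. Kif11, a motor protein that separates spindle poles, gave 0.02, 0.24, 0.20, 0.01 and -0.12 in HCC and 0.05, -0.08 and -0.02 in the livers.

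Genes of signalling, growth and cell death gave the same result. Of 30 listed genes 26 had probes, 50 in all, and none of the 50 was called between HCC and liver by limma, with 1 at an unadjusted p under 0.05 chromosome-normalised. The median difference was -0.00. Chuk, a kinase that activates NF-kB, was highest, with 0.19, 0.13, -0.05, 0.06 and 0.16 in HCC 1 to HCC 5 and -0.12, -0.04 and 0.00 in the livers. Gstp1, a glutathione transferase gene, was lowest at a mean difference of -0.17, which rested on HCC 1 at -0.76 beside 0.09, 0.21, -0.00 and 0.15 in the other HCC. Sufu, an inhibitor of hedgehog signalling, held the 1 probe of this list called between mice.

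Liver metabolism genes gave no call between HCC and liver either. Of 41 listed genes 37 had probes, 63 in all, with 0 called by limma and 0 at an unadjusted p under 0.05 chromosome-normalised. Cyp2c37, a drug-metabolising cytochrome, was lowest, with -0.57, -0.24, -0.08, -0.61 and 0.24 in HCC 1 to HCC 5 and -0.26, 0.20 and -0.06 in the livers. Fads2 was highest at a mean difference of 0.23, through the spot of unaffected liver 2 described above. Lipa, lysosomal acid lipase, gave -0.03, 0.02, 0.00, 0.28 and -0.12 in HCC and -0.36, -0.03 and -0.03 in the livers. The groups overlapped in each of these genes.

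The multigene families had median differences between -0.08 and 0.03. The 38 olfactory receptor genes (42 probes) had a median difference of -0.02, the 14 Ms4a genes 0.02, the 10 Cyp2c genes -0.00, the 4 Slc22a genes -0.08 and Lipf, Lipk, Lipn and Lipm 0.03. No probe of these families was called in any comparison. Genes higher and lower in HCC numbered 15 and 23 for the olfactory receptors, 9 and 5 for Ms4a and 4 and 6 for Cyp2c. For Slc22a the counts were 0 and 4, and for Lipf, Lipk, Lipn and Lipm 3 and 1. These counts were not tested. Olfr1491 gave -1.32 in HCC 3, the lowest Chr19 probe of that tumour, and between -0.23 and 0.09 in every other tissue. Olfr1459 gave 0.16, 0.03, 0.34, 0.50 and 0.03 in HCC 1 to HCC 5 and 0.02, -0.01 and -0.01 in the livers, each from 1 probe. Probes of such families can bind related copies elsewhere, so these values are uncertain as to the gene.

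**Figure D5:**
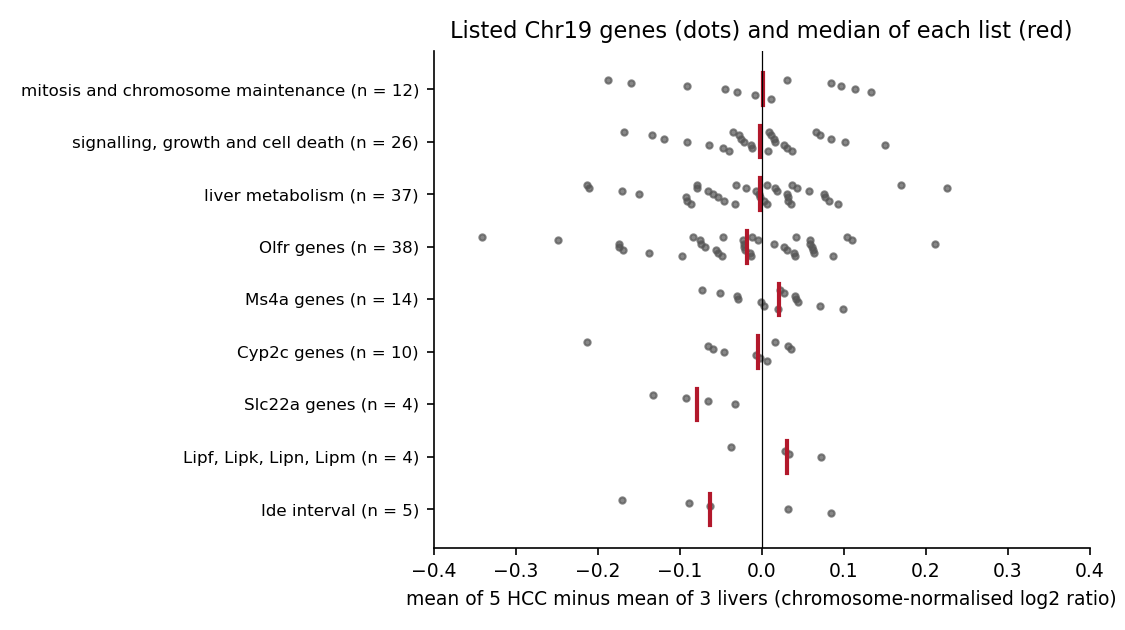
Listed Chr19 genes. The x axis is the mean of 5 HCC minus the mean of 3 unaffected livers on the chromosome-normalised log2 scale, each dot is a gene (mean of its probes), red bars are list medians, and n is the number of genes with probes. All medians lie between -0.08 and 0.03 and every dot lies within 0.35 of 0.

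The interval around Ide, which encodes insulin-degrading enzyme and whose copy number is known to vary between C57BL/6 mice, was partly covered. Ide and Fgfbp3 had no probe of their name. Btaf1, Cpeb3, March5, Kif11 and Hhex had 10 probes, of which 0 were called between mice. Their median was 0.02, -0.02, -0.02, 0.04 and 0.04 in HCC 1 to HCC 5 and 0.13, 0.00 and 0.01 in the unaffected livers. Hhex, a homeobox gene of liver development with 1 probe, was the widest, at -0.61 in HCC 1, 0.57 in HCC 2 and 0.44 in unaffected liver 1 and between -0.08 and 0.01 in the other tissues.

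The extremes of Chr19 fell at single probes in every tissue. The unnamed probe at 23551215 was the highest in HCC 4, HCC 5 and unaffected livers 2 and 3, at ratios of 1.30, 0.81, 1.66 and 1.18, and the low Wnt8b probe was the lowest in HCC 1, HCC 2 and unaffected liver 1, at -2.45, -3.23 and -2.24. The highest in HCC 3 was AK015359 at 2.02, and the highest in HCC 1, HCC 2 and unaffected liver 1 were Nt5c2 at 1.03, Zfpl1 at 0.75 and AK083199 at 0.65. The lowest in HCC 5 was a probe of Tcf7l2, a Wnt pathway transcription factor, at -0.98, with -0.25 on one array and -1.71 on the other, and the lowest in unaffected liver 3 was Zfand5 at -0.38. Probes more than 1 below the chromosome median numbered 13, 16 and 20 in HCC 1, HCC 2 and unaffected liver 1, of which 6, 7 and 10 lay in the stretch around Gcnt1 and Rfk, and 0 to 2 in the other tissues.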

How the data were processed

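Genomic DNA of 8 tissues was hybridised to 15 arrays of 2 colours on 4 slides, scanned on 2 days. The authors' processed intensity values, per the file headers, came from Agilent Feature Extraction 9.1.3.1, background-subtracted and dye-normalised. As an alternative the deposited matrix of log10 ratios was used. Tissue intensity was divided by reference intensity in log2, dye swaps were turned to the same direction, spots marked as outliers were left out, spots of a probe averaged, arrays centred on the autosomal median without loess, and both orientations of a tissue averaged to 1 replicate. Arrays carry no read depth, so their number limits precision. Of 694 gene names on Chr19, 478 matched a current and 76 an older symbol in the gene table of GRCm38.p6. Only 25.8% of the 826 probes with a Chr19 symbol there fell inside that gene, so its coordinates were not used.

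Groups were compared with limma 3.58.1 (lmFit and eBayes, R 4.3.3, two-sided, Benjamini-Hochberg over 19 autosomes or 40726 probes, threshold 0.05), and mice by its moderated F-test. Segments came from optimal partitioning (5 or more probes a segment, penalty 3, which scales with the variance of the noise and the log of the probe number), with Python 3.11.15, numpy 2.4.6, pandas 2.3.3, numba 0.67.0 and matplotlib 3.10.9. The steps were tested on simulated data, for limma with independent tissues and set shifts. Such data do not show how small a difference would be found in tissues that share animals. Named by rule were the listed genes with the largest and smallest difference, the 5 probes of smallest p per comparison, focal regions and genes at their ends, extreme probes, Ide and Fgfbp3. Wnt8b, Trub1, Tectb, Sufu and other called probes outside that rule were named after their values were seen. The probes and lists were chosen with earlier results of these data known. Tissues of one mouse pair the groups: deviations from group means over probes correlated with r of 0.17 to 0.40 within a mouse and -0.33 to 0.11 between mice. Taking out group means pushes the deviations within a group to opposite sides, so part of that contrast is built in. P-values between HCC and liver measure the spread between tissues, and every tissue shares its animal with another. Apart from the fit with mouse as a block, those tests treat the tissues as independent. The F-test between mice sets the differences between animals against the spread between tissues of one animal.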

Additional observations from a re-analysis of the deposited data

Results flagged for a closer look

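The stretch around Gcnt1 and Rfk differed between animals under the same comparison with reference DNA. Mouse 3151 minus the other mice was -1.48 on the chromosome-normalised log2 scale, low in 3 of 3 tissues and high in 5 of 5. The unnamed probe at 23551215 did so too, by -1.997. The stretch and the probe were picked for such values, so that the calls of limma's F-test at 14 of its 15 probes and at the unnamed probe are a description and no separate support. Sex, age, Trp53 genotype and reference of mouse 3151 cannot be told apart from the animal.

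Of 54 sets of 5 HCC examined for a tumour apart from the rest, 5 had one. Chance flags about 1 in 20 sets, but 4 of the 5 were genes or probes named for a large difference or a small p, to which that rate does not apply. They were Olfr1491 at -1.32 in HCC 3, Gstp1 at -0.76 in HCC 1, AK163904 at a ratio of -0.39 in HCC 5, the probe at 10037309 at -0.18 in HCC 4, and the median of the Cyp2c genes at 0.016 in HCC 5, where the other HCC lay between -0.12 and -0.09. The first 4 rest on 1 probe each.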

How the results depend on the processing

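The HCC minus liver difference in Chr19 level, -0.05, did not pass the test under any of 22 alternatives, at p from 0.337 to 0.933, and its sign turned without HCC 5 (0.0093) and within scan day 2 (0.079). Leaving out one tissue gave -0.094 to 0.0093, and mouse as a replicate block gave -0.036. The number of HCC past 0.3 was 1, and 0 with normexp background correction, centring on all probes or a threshold of 0.5, 2 at a threshold of 0.2, and 0 to 1 leaving out one tissue. Focal regions against the reference numbered 16, and 8 with normexp or a penalty of 5 and 9 on forward arrays. Focal regions of HCC minus own liver numbered 0, and 1 at a penalty of 2, in HCC 1, where 9 probes from Bad to Trpt1 lay -0.59 from the chromosome median. Leaving out the 15 probes around Gcnt1 and Rfk, chosen after seeing the data, gave a level difference of -0.044. The cause of these changes was not tested. Probes called between HCC and liver stayed at 0 in all alternatives, the replicate block and scan day as a block included. The Chr19 probes called between mice numbered 22 to 36 over 15 alternatives. The difference along Chr19 was -0.011 to -0.0015 over 17, the replicate block changing no call.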
